A study of Mus musculus with 16 samples.

Results

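The genes described are the 50 proteasome genes of mouse fat: the subunits, activators, inhibitor and assembly factors of the proteasome and the transcription factor Nfe2l1. They were taken by symbol (Psma, Psmb, Psmc, Psmd, Psme, Psmf and Psmg followed by a number, plus Nfe2l1) from the 46078 gene identifiers of the deposited table. By role they are 8 alpha and 7 beta subunits of the 20S core, 3 immunoproteasome subunits, 1 thymoproteasome subunit (Psmb11), 6 ATPase and 11 non-ATPase subunits of the 19S cap, 3 factors of 19S assembly, 6 activators and inhibitors, 4 factors of 20S assembly and Nfe2l1.

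Poly(A)-selected RNA was sequenced from brown adipose tissue (BAT), which makes heat, and inguinal white adipose tissue (WAT), which stores fat beneath the skin. The donors were female wild-type C57BL/6 mice aged 16 weeks, all raised at 30 °C. One set stayed at 30 °C. The other entered a climate chamber when 10 to 12 weeks old, and spent 2 weeks at 18 °C and the last 3 weeks at 5 °C. In both sets tissue was taken after food had been withheld for 2 to 3 h. Tissue and temperature together gave 4 groups of 4 libraries, named here BAT_30C, BAT_5C, WAT_30C and WAT_5C. The labels do not state that each library is a separate mouse, so the tests speak of the spread among libraries, which may be technical.

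The proteasome is the protease that destroys proteins tagged with ubiquitin. Its barrel, the 20S core, carries the cutting sites on the beta subunits Psmb5, Psmb6 and Psmb7, and the 19S cap recognises, unfolds and feeds in the tagged protein. In immune cells, and in other cells exposed to interferon, Psmb8, Psmb9 and Psmb10 take the places of Psmb5, Psmb6 and Psmb7, giving the immunoproteasome, which supplies peptides for display on MHC class I. Nfe2l1 is held at the endoplasmic reticulum membrane and, when proteasome capacity runs short, is cut free and switches on the subunit genes. In brown fat Nfe2l1 is known to be required for tissue function during cold exposure.

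Promoters of 5 members are printed because the results turn on them: Psmb5 and Psmb6, core subunits of which the first rose in cold BAT and the second did not pass the test, Psmc4, the cap subunit with the highest fold change there, and Psmb8 and Psmb9, which fell. Each is the 250 bases before the gene's start on the gene's own strand (RefSeq, GRCm38.p6), and capitals mark a motif match.
Psmb5, chr14:54617996-54618245, minus strand: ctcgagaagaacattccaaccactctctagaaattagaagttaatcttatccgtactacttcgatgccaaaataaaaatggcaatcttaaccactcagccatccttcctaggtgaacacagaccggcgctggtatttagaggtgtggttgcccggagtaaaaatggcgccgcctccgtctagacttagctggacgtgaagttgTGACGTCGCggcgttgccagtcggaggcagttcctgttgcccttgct
Psmb6, chr11:70525107-70525356, plus strand: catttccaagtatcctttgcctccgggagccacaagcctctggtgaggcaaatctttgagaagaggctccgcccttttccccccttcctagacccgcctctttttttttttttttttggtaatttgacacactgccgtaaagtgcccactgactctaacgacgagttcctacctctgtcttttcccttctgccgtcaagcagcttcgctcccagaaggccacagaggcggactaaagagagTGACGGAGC
Psmc4, chr7:28050093-28050342, minus strand: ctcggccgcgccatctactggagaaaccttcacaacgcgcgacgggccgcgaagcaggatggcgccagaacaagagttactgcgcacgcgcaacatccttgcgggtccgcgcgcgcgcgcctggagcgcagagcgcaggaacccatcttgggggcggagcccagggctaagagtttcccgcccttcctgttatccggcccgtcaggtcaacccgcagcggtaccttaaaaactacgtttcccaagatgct
Psmb8, chr17:34197945-34198194, plus strand: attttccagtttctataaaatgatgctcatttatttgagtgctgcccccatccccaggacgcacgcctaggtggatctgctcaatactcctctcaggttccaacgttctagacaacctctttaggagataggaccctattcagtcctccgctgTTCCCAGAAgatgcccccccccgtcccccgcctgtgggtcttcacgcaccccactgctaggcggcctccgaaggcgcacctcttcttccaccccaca
Psmb9, chr17:34187331-34187580, minus strand: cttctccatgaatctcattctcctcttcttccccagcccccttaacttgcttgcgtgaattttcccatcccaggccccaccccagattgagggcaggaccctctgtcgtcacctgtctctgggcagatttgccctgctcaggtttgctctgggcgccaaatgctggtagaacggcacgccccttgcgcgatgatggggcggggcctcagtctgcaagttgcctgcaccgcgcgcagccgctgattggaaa

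A promoter was in the table for 42 of the 50 members, and 3 motifs were searched on both strands. The first was TGACNNNGC, the antioxidant response element that Nfe2l1 binds with small Maf proteins, whose first letters are also those of other elements such as the AP-1 site. It was found in 5 of 42 members (11.9%), against 11.52% of 27025 genes. These were Psmb5 (TGACGTCGC, beginning 47 bases before the start), Psmb6 (TGACGGAGC, 9 bases before), Psmd9, Psmd12 and Psmc6. The second, TTCNNNGAA, the gamma-interferon activated site, was found in 2 of 42 members, Psmb8 (TTCCCAGAA, beginning 97 bases before the start) and Psmg1, against 8.13% of all genes. The third, the interferon-stimulated response element (GAAA, then NN, then GAAA), was found in 3 of 42, Psmb3, Psmd4 and Psmd9, against 3.463%. No match overlapped a match to another of these motifs. The Psmc4 and Psmb9 stretches hold none of the 3. A match is a run of letters, not a shown binding site.

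Depth was 54264023 to 71289020 counts per library, and the 50 members took 0.355 to 0.457% of it. Levels are given as CPM, counts scaled to the library size by TMM. The summed level of 9 brown adipocyte markers was 3365 to 5714 CPM in BAT_30C and 19690.5 to 21441 in BAT_5C, against 48.7 to 69.6 in WAT_30C and 115 to 876 in WAT_5C, although the tissue label of the BAT libraries reads "Inguinal BAT". In 4 of the 8 BAT libraries (BAT_5C replicates 1 and 2, BAT_30C replicates 3 and 4) the source label names the other temperature than the title and housing labels that set the groups. WAT_5C replicate 1 went against its label of a female mouse, with 3 counts of Xist against 11136 to 88934 elsewhere and 17183 Y-linked counts against at most 45. Its mammary epithelium markers had a geometric mean of 0.836 CPM, and the group's highest was 37.2. The main tests of members that use WAT_5C are therefore given with and without this library. Marker sums, marker calls between tissues and some alternative settings are given only with it.

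In brown fat the cold raised most of the proteasome and lowered its immune form. Of 48 members tested, 36 rose, 6 fell and 6 did not pass (edgeR quasi-likelihood test, Benjamini-Hochberg adjusted p below 0.05). Over all 16213 genes, 29.2% rose and 30.3% fell. The members' median log2 fold change was 0.43, against -0.05 over all genes. All 17 cap subunits rose, 12 of 14 core subunits rose and none fell, and the 3 immunoproteasome subunits fell. The testis alpha subunit Psma8 (at most 0.16 CPM in BAT) and the thymus subunit Psmb11 (at most 0.111 CPM) were too low to test.

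The regulator Nfe2l1 (ENSMUSG00000038615) was at 495, 598, 585 and 639.6 CPM in BAT_30C replicates 1 to 4 and at 972, 973, 931 and 996 in BAT_5C. Every cold library was above every warm one, and the 4 cold libraries lay closer together than the warm ones. The log2 fold change was 0.74 ± 0.08 (SE, adjusted p = 3.70e-05).

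Among the alpha subunits, which form the outer rings and the gate of the core, 7 of 7 tested rose, with log2 fold changes from 0.22 to 0.63. The highest was Psma2, at 83.5, 91.1, 87.7 and 84.0 CPM in BAT_30C and 133, 127, 141 and 135 in BAT_5C (0.63 ± 0.05 (SE, adjusted p = 7.68e-06)). The lowest was Psma5, at 48.9, 53.2, 50.1 and 49.5 and then 59.9, 55.4, 63.4 and 56.8 CPM (0.22 ± 0.06 (SE, adjusted p = 0.00674)). For both, the groups were fully apart, though for Psma5 the gap between them was narrow. Psma3 rose by 0.57.

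The beta subunits, which form the inner rings, divided. Psmb5, the chymotrypsin-like site, was at 64.9, 68.5, 69.2 and 65.5 CPM in BAT_30C and 114, 113, 121 and 119.8 in BAT_5C, with a change of 0.81 ± 0.05 (SE, adjusted p = 1.03e-06) on the log2 scale. Psmb7, the trypsin-like site, was at 147, 154, 149 and 153 and 247, 234, 243 and 244 CPM (0.68 ± 0.05 (SE, adjusted p = 2.49e-06)). In both genes the groups were far apart compared with their own spread. Psmb6, the caspase-like site, was at 108, 117, 118 and 110.0 CPM and 128, 111, 124 and 122 CPM. Its groups overlapped, and its change of 0.10 ± 0.06 (SE, adjusted p = 0.169) did not pass. The non-catalytic Psmb4 did not pass either, at 0.11 (adjusted p = 0.132), while Psmb3 rose by 0.48. Of the 897 windows of 50 bases in Psmb5 transcripts, 54.1% are shared with other annotated genes, most of them pseudogenes, and of those of Psmb3 55.8% and of Psma5 54.5%, so these counts depend on how the authors assigned such reads.

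The replacements of these subunits moved the other way. Psmb8, which replaces Psmb5, was at 23.7, 18.1, 25.2 and 19.6 CPM in BAT_30C and at 8.82, 8.63, 8.29 and 7.29 in BAT_5C (-1.39 ± 0.12 (SE, adjusted p = 8.14e-06)). Psmb9, which replaces Psmb6, was at 29.8, 22.7, 31.4 and 22.3 and at 13.2, 12.7, 14.9 and 9.59 CPM (-1.08 ± 0.15 (SE, adjusted p = 0.00022)). Psmb10, which replaces Psmb7, was at 43.3, 39.4, 44.3 and 38.0 and at 20.8, 20.9, 22.8 and 16.8 CPM (-1.02 ± 0.09 (SE, adjusted p = 1.13e-05)). In each of the 3 genes, every cold library was below every warm one.

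**Figure D1:**
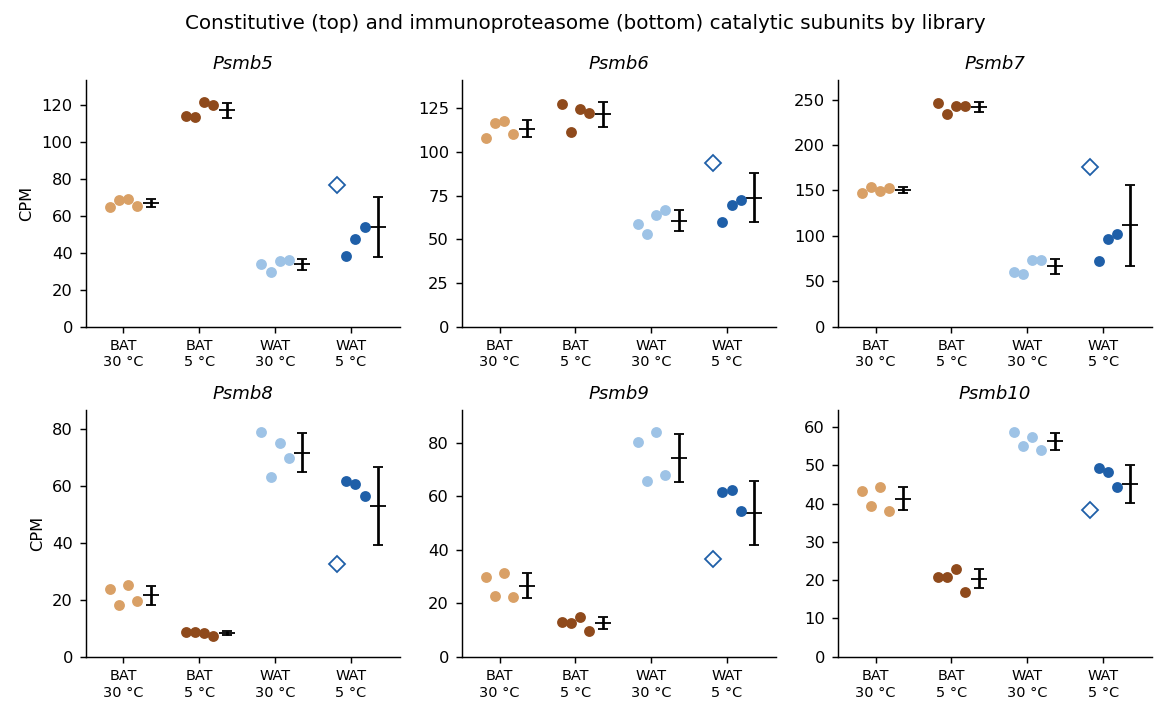
Level in CPM (vertical axes, each from 0) of the constitutive catalytic subunits Psmb5, Psmb6 and Psmb7 (top) and of Psmb8, Psmb9 and Psmb10 that replace them (bottom). Each point is a library, bars are mean ± SD over the 4 libraries of a group, and the open diamond is WAT_5C replicate 1. In BAT the top panels are higher at 5 °C for Psmb5 and Psmb7 and overlap for Psmb6, while the 3 bottom panels are lower at 5 °C.

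Psmb8, Psmb9 and Psmb10 are abundant in lymphocytes. Of 15 T and NK cell markers 9 fell and 0 rose in cold BAT, their sum being 25.7 to 32.6 CPM in BAT_30C and 14.2 to 22.4 in BAT_5C, with at most 1 of 15 at 0 counts in a library. B cell markers (0 of 10 rose, 0 fell) summed to 27.5 to 81.1 and 38.7 to 63.0 CPM, and of 12 macrophage markers 1 fell, with sums of 313 to 378 and 270.4 to 377 CPM. Their part in the fall of the immunoproteasome genes was not tested. In bulk tissue, fewer cells of a type and less RNA per cell cannot be told apart.

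The 19S ATPases form the ring that unfolds the substrate. Psmc4 (Rpt3) was at 60.4, 72.8, 61.0 and 66.004 CPM in BAT_30C and 147, 148, 155 and 161 in BAT_5C (1.23 ± 0.07 (SE, adjusted p = 8.08e-07)), the highest fold change among the 48 members tested. The lowest ATPase was Psmc6 (Rpt4), at 103, 117, 114 and 112 and 133, 130.3, 136 and 134 CPM (0.26 ± 0.05 (SE, adjusted p = 0.00253)). Psmc4 more than doubled in each pairing of a cold with a warm library, whereas the Psmc6 groups stood apart by a narrow gap. Psmc2 (Rpt1) rose by 0.63.

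Among the non-ATPase subunits, Psmd14 (Rpn11), the enzyme that removes the ubiquitin chain before a protein enters the core, was at 54.2, 49.0, 48.5 and 54.9 CPM in BAT_30C and 97.1, 104, 111 and 116 in BAT_5C (1.05 ± 0.07 (SE, adjusted p = 2.01e-06)). Psmd8 (Rpn12) had the lowest rise, from 179, 176, 188 and 178 to 230.1, 207, 220.0 and 228 CPM (0.30 ± 0.06 (SE, adjusted p = 0.00145)). Neither gene's groups overlapped. Psmd12 rose by 0.83 and Psmd7 by 0.82. The cap as a whole had a median log2 fold change of 0.59 and the core of 0.38. Each of the 3 chaperones that help build the cap rose as well. Psmd10 (gankyrin), which binds Psmc4 during assembly, was at 14.1, 16.0, 15.8 and 14.4 CPM in BAT_30C and 23.3, 28.0, 28.7 and 30.1 in BAT_5C (0.87 ± 0.09 (SE, adjusted p = 2.80e-05)). Psmd9, another ATPase chaperone, was at 19.029, 17.4, 18.0 and 18.9 and 25.6, 21.8, 23.9 and 24.3 CPM (0.39 ± 0.07 (SE, adjusted p = 0.00137)). Psmd5 rose by 0.47.

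The activators that can cap the core in place of 19S did not move together, and Psme1 and Psme2 of the same ring differed. Psme1 (PA28 alpha) was at 102, 99.2, 101 and 102 CPM in BAT_30C and 60.4, 57.2, 58.4 and 51.5 in BAT_5C (-0.83 ± 0.06 (SE, adjusted p = 1.64e-06)). Psme2 (PA28 beta), its partner in the same ring, was at 107, 104, 111 and 105 and 123, 108, 119 and 101 CPM, a change of 0.08 ± 0.07 (SE, adjusted p = 0.351). The Psme1 groups were far apart and the Psme2 groups overlapped. Of the windows of Psme2, 54.9% are shared, mainly with the retrogene Psme2b and a pseudogene, and of those of Psme1 11.3%. Psme4 (PA200), a nuclear activator, was at 92.7, 96.9, 87.7 and 97.3 and 169, 161, 154 and 179 CPM (0.82 ± 0.07 (SE, adjusted p = 6.63e-06)). Psme3 (PA28 gamma) rose by 0.32, and the inhibitor Psmf1 (PI31) was at 0.06 (adjusted p = 0.438).

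**Figure D2:**
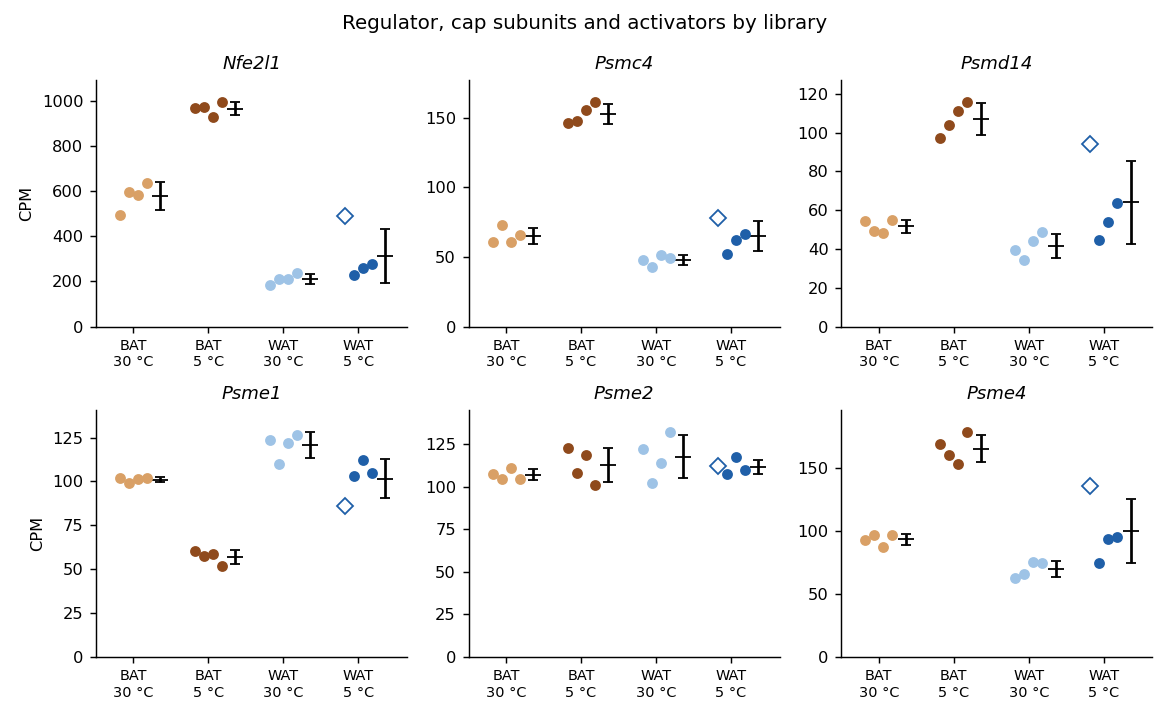
Level in CPM (vertical axes, each from 0) of Nfe2l1, the cap subunits Psmc4 and Psmd14 and the activators Psme1, Psme2 and Psme4. Each point is a library, bars are mean ± SD over 4 libraries, and the open diamond is WAT_5C replicate 1, which lies above the other WAT_5C libraries for Nfe2l1, Psmc4, Psmd14 and Psme4 and below them for Psme1.

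Chaperones of the core did not follow the core subunits as a group. Psmg1, which helps close the alpha ring, was at 28.4, 29.3, 27.1 and 27.3 CPM in BAT_30C and 36.8, 36.0, 36.7 and 35.9 in BAT_5C (0.38 ± 0.05 (SE, adjusted p = 0.000168)). Psmg4 was at 8.65, 9.33, 9.11 and 9.45 and 7.10, 4.81, 5.72 and 5.41 CPM (-0.66 ± 0.13 (SE, adjusted p = 0.00173)). The first was higher and the second lower in every cold library. Psmg2, the partner of Psmg1, fell by 0.27 on the log2 scale (adjusted p = 0.00957), and Psmg3 was at 0.10 (adjusted p = 0.578).

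**Figure D3:**
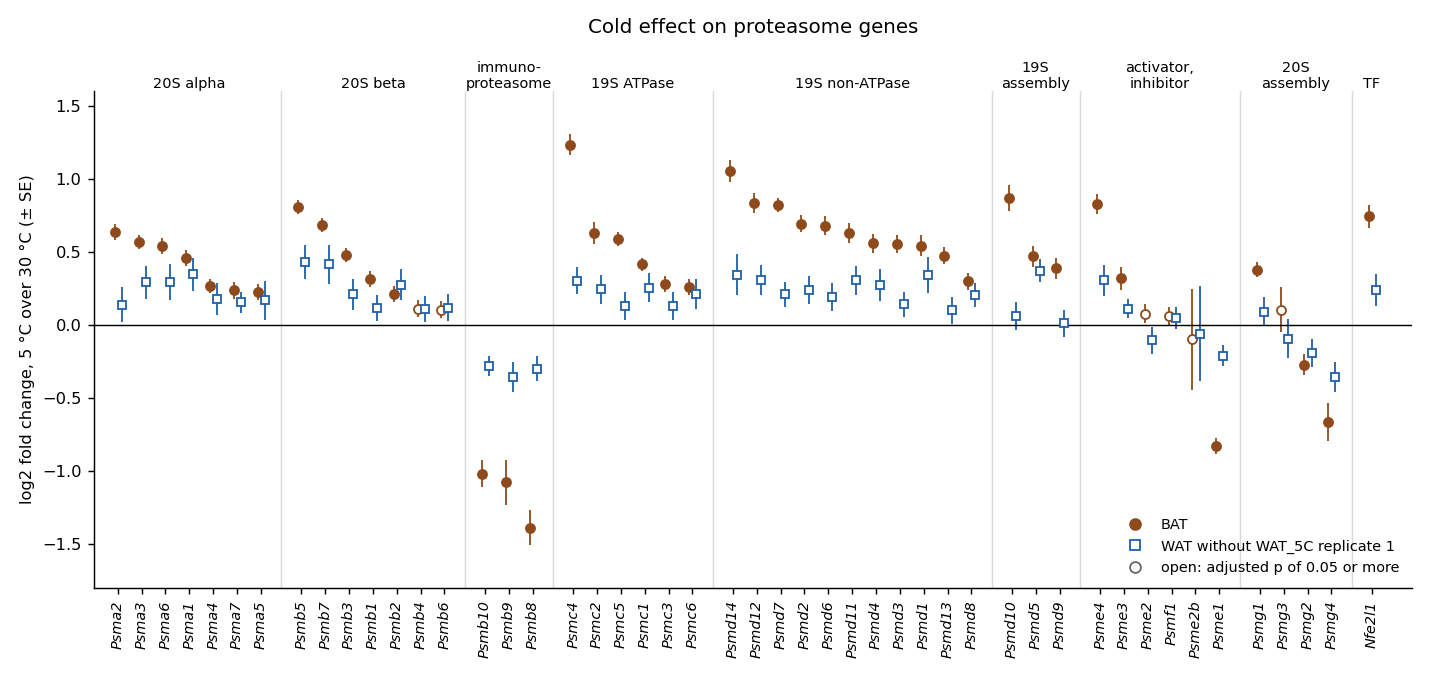
Log2 fold change of 5 °C over 30 °C (vertical axis, ± SE) for the 48 members tested in BAT, by class. Brown circles are BAT and blue squares are WAT without WAT_5C replicate 1, and open symbols did not reach an adjusted p below 0.05. The cap and most core subunits lie above 0 in BAT, with Psmc4 the highest at 1.23 and Psmb8 the lowest at -1.39, and all WAT symbols are open.

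Neighbouring parts of the system were read from lists of pathway genes. Of 13 genes that process or partner Nfe2l1, 8 rose and 2 fell in cold BAT. The deglycosylase Ngly1, which trims Nfe2l1 as it leaves the membrane, rose by 0.61. Nploc4, a cofactor of the extraction ATPase Vcp, rose by 0.91, and the small Maf protein gene Maff by 3.10. The small Maf genes Mafg (mean 62.3 CPM in BAT_30C, 57.2 in BAT_5C) and Mafk (26.1 and 23.1) did not share this rise, and their groups overlapped. Nfe2l3, related to Nfe2l1, fell from 7.02 to 15.2 CPM over the BAT_30C libraries to 0.342 to 0.730 CPM over BAT_5C (-4.38 ± 0.31 (SE, adjusted p = 2.56e-06)). Of 15 other proteasome partners 11 rose and 2 fell, among them the ubiquitin receptor gene Adrm1 (0.80), the shuttle factor Ubqln1 (0.89) and the ligase Ube3c (0.70), all higher in the cold. Uba1, the gene of a ubiquitin-activating enzyme, was at 0.34 and higher in the cold, whereas the ubiquitin genes Rps27a (-0.75) and Ubb (-0.25) fell. Of 14 genes of class I antigen presentation and interferon signalling, which work with the immunoproteasome, 10 fell and 2 rose. Its members include Erap1 (-0.62), which trims peptides, the class I chains H2-D1 (-0.80) and B2m (-0.76), and Irf1 (-0.46), all of which fell.

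These directions are relative to TMM scaling. With library totals the median of all genes in BAT moved by -0.38, 14.3% of genes rose and 54.5% fell, and 19 members rose and 14 fell (11 cap subunits rose and 1 fell, 5 core subunits rose and 5 fell, 3 immunoproteasome subunits fell). The members' median stood 0.487 above that of all genes with TMM and 0.488 with library totals, and the immunoproteasome median stood at -1.02 and -1.03 relative to it. Among the members named above, Psma5, Psmb4, Psmb6, Psmc6, Psmd8, Psme2, Psme3, Psmf1, Psmg1 and Psmg3 had negative values with library totals, as did Uba1. With only the 4 BAT libraries whose labels all match, 29 of 48 members rose and 5 fell, against 20.3% and 16.4% of genes.

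In white fat no member passed the edgeR test within the tissue, but other fits called some. With all 8 WAT libraries, 0 of 49 members rose and 0 fell (edgeR), against 0.0632% of all genes that rose and 0% that fell. An unadjusted p below 0.05 was found for 28 of the 49 members and for 3430 of all 18975 genes. DESeq2 called 1 higher and 1 lower, against 4.46% and 1.45% of genes, and limma-voom 9 higher and 3 lower, against 7.34% and 4.62%. EdgeR in 1 model of all 16 libraries, in which BAT shares the estimate of spread, called 16 higher and 0 lower, against 7.39% and 0.76%. Without WAT_5C replicate 1 the count was again 0 and 0 of 49, against 1.84% and 0.274% of genes. The unadjusted p was then below 0.05 for 24 members and for 4483 of all 19320 genes. DESeq2 then called 4 and 4, against 7.35% and 4.96% of genes, limma-voom 5 and 4, against 6.47% and 3.73%, and 1 edgeR model of all other libraries 7 and 0, against 5.71% and 1.1%.

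With TMM the sign in WAT was positive for 39 members and negative for 10 both with and without WAT_5C replicate 1, and the members' median log2 fold change was 0.28 with and 0.17 without that library, against -0.01 and -0.02 over all genes. The groups did not overlap for 5 members higher and 4 lower at 5 °C, the same counts in both fits, against 8.23% and 5.42% of all genes with that library and 11.9% and 7.05% without it. All 17 cap values were positive in both fits (medians 0.41 and 0.24), and the 3 immunoproteasome values were negative (medians -0.47 and -0.30). These signs moved with the scaling. With library totals the median of all genes shifted by -0.25 with and -0.14 without replicate 1, 24 and 26 members were positive, with medians of -0.0074 and 0.021, and 13 of 17 cap values were positive in both fits. The 3 immunoproteasome values stayed negative.

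Nfe2l1 was at 186, 211, 210.2 and 238 CPM in WAT_30C, at 490.3 in WAT_5C replicate 1 and at 229, 259.9 and 277 in the other WAT_5C libraries. The log2 fold change was 0.54 ± 0.24 (SE, adjusted p = 0.28) with all libraries and 0.24 ± 0.11 (SE, adjusted p = 0.23) without replicate 1. Replicate 1 was far above the other WAT_5C libraries and just below the lowest BAT_30C library, and without it the WAT groups still overlapped.

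Psmb5 was at 33.8, 29.3, 35.5 and 35.8 CPM in WAT_30C, at 76.6 in WAT_5C replicate 1 and at 38.1, 47.3 and 53.8 in the others, with log2 fold changes of 0.65 ± 0.20 (SE, adjusted p = 0.2) with and 0.43 ± 0.12 (SE, adjusted p = 0.0898) without replicate 1. Psmb7 was at 60.2, 57.5, 73.8 and 73.6, 176 and 72.5, 96.6 and 102 CPM, with 0.72 ± 0.25 and 0.41 ± 0.14. The Psmb5 groups did not overlap with or without replicate 1, and the lowest WAT_5C value of Psmb7 lay inside the WAT_30C range. Psmb6 was at 58.7, 53.2, 63.6 and 66.6, 93.6 and 59.8, 69.6 and 72.2 CPM, with 0.26 ± 0.14 and 0.12 ± 0.09. Psmc4 was at 48.0, 42.7, 51.3 and 49.2 CPM in WAT_30C, 78.2 in WAT_5C replicate 1 and 52.5, 61.9 and 66.5 in the others (0.41 ± 0.12 and 0.30 ± 0.09). Psmd14 was at 39.4, 34.3, 43.9 and 48.9, 93.9 and 44.6, 53.8 and 63.8 CPM (0.59 ± 0.22 and 0.34 ± 0.14). Psmd5, a cap chaperone, came nearest to the threshold without replicate 1, at 0.37 ± 0.08 (SE, adjusted p = 0.0594), and passed in both DESeq2 fits.

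The immunoproteasome genes were lower in every WAT_5C library than in any WAT_30C library, with and without replicate 1. Psmb8 was at 78.9, 63.2, 75.3 and 69.9 CPM in WAT_30C, at 32.8 in WAT_5C replicate 1 and at 61.9, 60.7 and 56.4 in the others (-0.47 ± 0.20 (SE, adjusted p = 0.271) and -0.30 ± 0.09 (SE, adjusted p = 0.0999) without replicate 1). Psmb9 was at 80.4, 65.8, 83.9 and 68.0, 36.4 and 61.8, 62.3 and 54.5 CPM (-0.50 ± 0.18 and -0.36 ± 0.10). Psmb10 was at 58.6, 54.9, 57.3 and 54.0, 38.4 and 49.4, 48.2 and 44.3 CPM (-0.35 ± 0.10 and -0.28 ± 0.07, adjusted p = 0.0711). Replicate 1 was the lowest library for all 3. Psme1 was at 124, 109.8, 122 and 127, 85.9 and 103, 112 and 105 CPM (-0.28 ± 0.10 and -0.21 ± 0.07), and Psme2 at 102 to 132 CPM in WAT_30C and 108 to 117 in WAT_5C (-0.10 ± 0.10 and -0.11 ± 0.09).

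The 15 T and NK cell markers summed to 739 to 1045 CPM in WAT_30C and 182 to 724 in WAT_5C, lowest in replicate 1. Each of the 15 had a negative log2 fold change in both fits, none past the threshold, and the groups were apart for 9 of 15. Skeletal muscle markers summed to 123 to 9619 CPM in WAT_30C and 21.8 to 6615 in WAT_5C. Both sums varied more within these groups than the summed core, cap or immunoproteasome level did. Their part in the members' values was not tested.

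**Figure D4:**
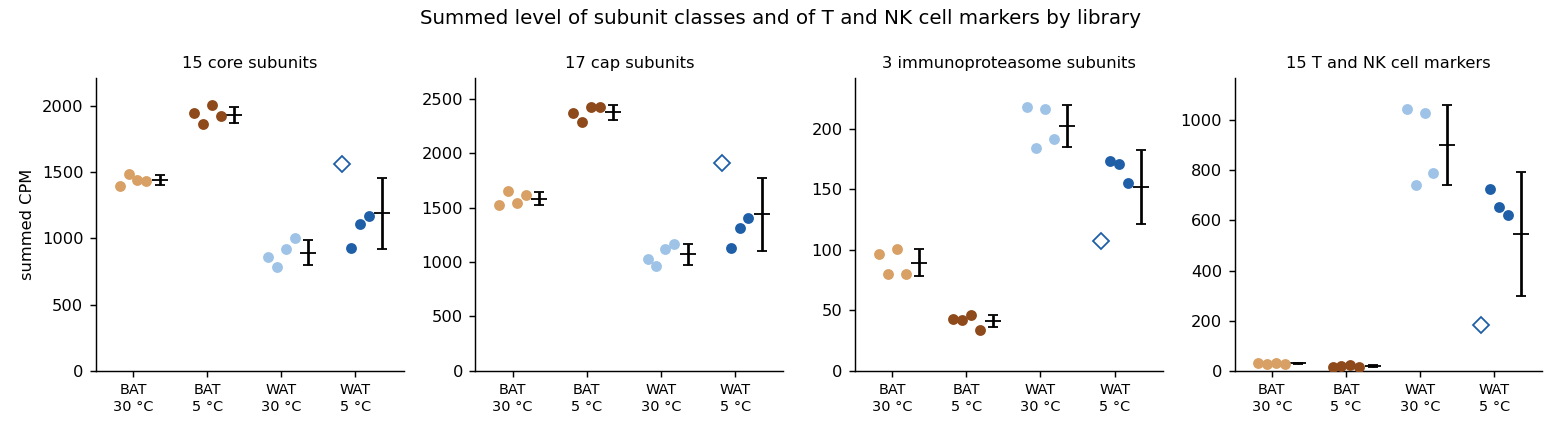
Summed CPM per library (vertical axes, each from 0) of 15 core subunits, 17 cap subunits, 3 immunoproteasome subunits and 15 T and NK cell markers. Each point is a library, bars are mean ± SD over 4 libraries, and the open diamond is WAT_5C replicate 1, the highest WAT library for core and cap and the lowest for both other sums.

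Whether the cold effect differed between the tissues was tested directly in a model of all 16 libraries, as the WAT minus the BAT log2 fold change. With all libraries 3 members were above 0 (Psmb8 0.95 ± 0.24 (SE, adjusted p = 0.0106), Psmb10 0.70 ± 0.14 (SE, adjusted p = 0.00222) and Psme1 0.58 ± 0.12 (SE, adjusted p = 0.00284)) and 2 below (Psmc4 -0.79 ± 0.15 (SE, adjusted p = 0.0019) and Psmd10 -0.76 ± 0.14 (SE, adjusted p = 0.00125)) of 49. Over all 19481 genes, 12.5% were above and 8.34% below. For these 5 genes the change in BAT was the larger one. Psmb9 had the same sign at 0.61 ± 0.25 (SE, adjusted p = 0.0999) and did not pass.

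Without WAT_5C replicate 1, 4 members were above 0 and 17 below, against 15.6% and 15.7% of all genes. The 4 above were the 3 immunoproteasome genes, Psmb9 now at 0.71 ± 0.20 (SE, adjusted p = 0.0152), and Psme1. The 17 below included 10 of the 17 cap subunits, 2 of 15 core subunits (Psma2 and Psmb5), Psmd9, Psmd10, Psme4, Psmg1 and Nfe2l1. Nfe2l1 moved from -0.17 ± 0.27 (SE, adjusted p = 0.699) with that library to -0.51 ± 0.13 (SE, adjusted p = 0.00964) without it. The count of members below 0 therefore rested on that 1 library.

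At 30 °C brown fat already differed from white fat. BAT_30C shares its libraries with the cold comparison above, so the values stand beside those, not as a separate replication. Of 49 members 32 were higher and 6 lower in BAT, against 34.5% and 35.3% of 19481 genes. The core was higher for 11 of 15 and lower for 1, the cap higher for 14 of 17 and lower for none, and the immunoproteasome lower for 3 of 3. The members' median log2 difference was 0.43, and that of all genes -0.03.

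Nfe2l1 ranged from 495 to 639.6 CPM in BAT_30C and from 186 to 238 in WAT_30C, a log2 difference of 1.45 ± 0.19 (SE, adjusted p = 9.35e-06). Among subunits and assembly factors, the differences furthest above 0 were in Psmd8 (1.32 ± 0.14) and Psmb7 (1.19 ± 0.19), followed by Psmg1 (1.01 ± 0.12), Psmb5 (0.996 ± 0.15), Psmc6 (0.99 ± 0.12), Psma6 (0.96 ± 0.15), Psmb2 (0.95 ± 0.13) and Psmb6 (0.90 ± 0.11). Lower in BAT were Psmb8 (-1.73 ± 0.17 (SE, adjusted p = 5.15e-07)), Psmb9 (-1.49 ± 0.18 (SE, adjusted p = 3.74e-06)), Psmb10 (-0.45 ± 0.10 (SE, adjusted p = 0.000777)) and Psme1 (-0.25 ± 0.08 (SE, adjusted p = 0.0129)). The other 2 lower members, Psme2b and Psma8, lay at no more than 3.59 and 0.183 CPM in the 8 libraries compared.

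At 5 °C, 36 of 49 were higher and 5 lower in BAT, against 31.8% and 40.5% of genes, and without WAT_5C replicate 1 it was 40 and 5, against 34% and 42.2%. All 17 cap subunits were higher in both fits. Nfe2l1 differed by 1.62 ± 0.19 with and 1.91 ± 0.10 without that library, Psmc4 by 1.24 ± 0.11 and 1.32 ± 0.09, Psmb5 by 1.12 ± 0.15 and 1.32 ± 0.10. Psmb8 differed by -2.68 ± 0.18 and -2.87 ± 0.12, Psmb9 by -2.09 ± 0.18 and -2.26 ± 0.15, Psmb10 by -1.15 ± 0.10 and -1.23 ± 0.09, and Psme1 by -0.83 ± 0.08 and -0.92 ± 0.07. These 4 genes and Psme2b were the 5 lower members with all libraries.

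The count of members higher or lower between tissues turned with the scaling. With library totals the median of all genes moved by -0.85 at 30 °C and by -0.93 at 5 °C, 12.9% and 10.9% of genes were then higher in BAT and 66.1% and 71.3% lower, and 3 members were higher and 37 lower at 30 °C and 6 and 33 at 5 °C. Relative to the median of all genes, the members' median stood at 0.461 with TMM and 0.463 with library totals at 30 °C, and at 0.798 and 0.826 at 5 °C. The immunoproteasome genes were lower in BAT under both scalings. Marker levels of other cell types differed as well. T and NK markers summed to at most 32.6 CPM in BAT and at least 182 in WAT, B cell markers to at most 81.1 and at least 700.3, and macrophage markers to at most 378 and at least 1005, whereas endothelial markers summed to 1339 to 1647 CPM in BAT and 461 to 794 in WAT. All 15 T and NK markers and all 10 B cell markers were lower in BAT at both temperatures, as were 13 of 14 class I and interferon genes at 30 °C, among them H2-K1 (-1.29), Nlrc5 (-1.94), Irf1 (-1.13) and H2-D1 (-0.91). Their part in the lower immunoproteasome level was not tested.

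To compare genes with each other, CPM was divided by the length of each gene's annotated exons. That length joins the exons of all annotated transcripts and can exceed that of the mRNA, so the order of genes depends on it. Psmb7 and Psma6 had 1111 and 1099 windows of 50 bases in protein-coding transcripts, and 151 and 140 CPM in BAT_30C. Per kilobase they were at 44.1 and 113. On this scale Psma6 and Nfe2l1 had the highest levels of the 50 in BAT_30C, at 113 ± 6.01 and 106.5 ± 11.2 CPM per kilobase (SD, n = 4), with overlapping libraries, ahead of Psmb5 at 74.5 ± 2.37. In BAT_5C the order of the first pair was Nfe2l1 at 178 ± 5.02 and Psma6 at 164 ± 1.82, whose libraries did not overlap, with Psmb5 at 130.2 ± 4.59.

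The share of Psmb8, Psmb9 and Psmb10 in the summed level per kilobase of the 6 catalytic subunits puts these values on 1 scale that does not move with library scaling. It was 18.999, 15.9, 18.6 and 16.2% in BAT_30C and 6.45, 6.72, 6.81 and 5.15% in BAT_5C. In WAT_30C it was 47.9, 46.9, 45.3 and 42.3%, and in WAT_5C 18.4% in replicate 1 and 40.2, 34.9 and 31.0% in the others. Within each tissue every cold library was below every warm one, and WAT_5C replicate 1 lay inside the BAT_30C range. By pair, the share of Psmb8 within Psmb8 and Psmb5 was 7.90 ± 1.12% in BAT_30C, 1.84 ± 0.198% in BAT_5C and 36.2 ± 1.69% in WAT_30C (SD, n = 4), and in WAT_5C 21.9 ± 8.51% (SD, n = 4) with and 25.8 ± 4.19% (SD, n = 3) without replicate 1. The share of Psmb9 within Psmb9 and Psmb6 was 10.7, 5.04, 38.6 and 27.6% on average in those groups, with 31.3% in WAT_5C without replicate 1. The share of Psmb10 within Psmb10 and Psmb7 was on average 35.4, 14.4, 63.1 and 46.2%, with 51.5% without replicate 1. Per kilobase it was the highest of the 3 pairs in every group, but this order depended on the division by length. The joined exon length was 3421 bases for Psmb7 and 899 for Psmb5, although their protein-coding transcripts had 1111 and 897 windows. The length used for Psmb7 may thus exceed that of its mRNA, which would raise the share of Psmb10. The share per kilobase therefore does not show that Psmb10 exceeded Psmb7 in WAT_30C. In CPM not divided by length, the WAT_30C mean of Psmb10 (56.2) was below that of Psmb7 (66.3). Psmb8 (71.8) was above Psmb5 (33.6) there, and Psmb9 (74.5) above Psmb6 (60.5). Not divided by length, the share over the 6 genes was 21.3 ± 2.21, 7.89 ± 0.964, 55.8 ± 2.78 and 39.8 ± 11.4% (SD, n = 4), in the same order of groups.

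**Figure D5:**
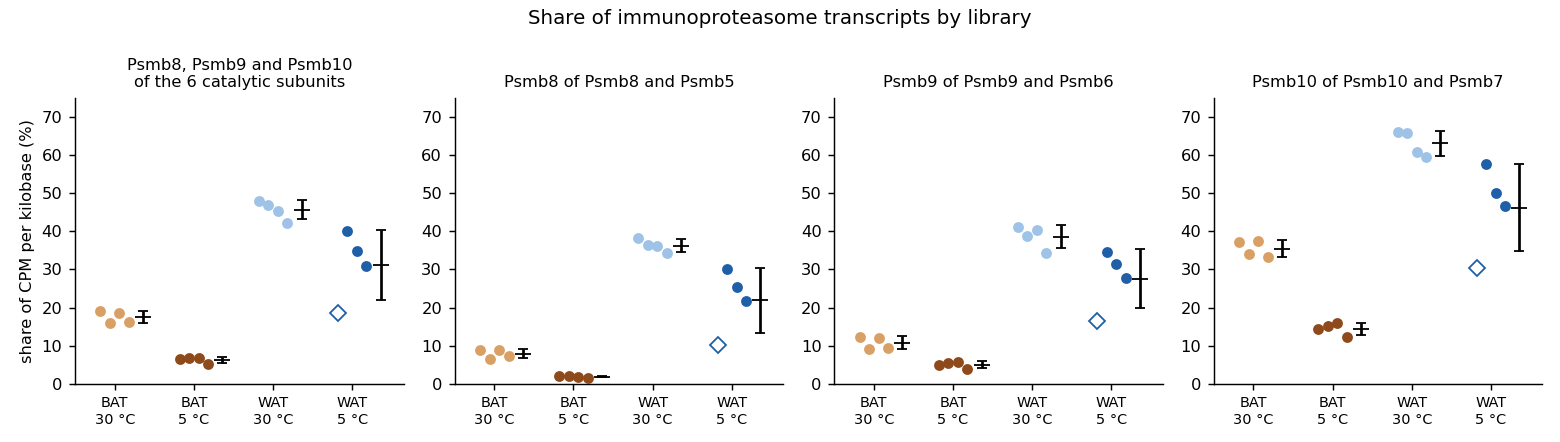
Share (%) of immunoproteasome transcripts in CPM per kilobase per library, for the 6 catalytic subunits together and for each replaced pair (vertical axes from 0 to 75%). Each point is a library, bars are mean ± SD over 4 libraries, and the open diamond is WAT_5C replicate 1, at 18.4% in the first panel. Every 5 °C library is below every 30 °C library of the same tissue, except in the Psmb9 panel, where WAT_5C reaches 34.6% and WAT_30C goes down to 34.3%.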

How the data were processed

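The authors deposited a table of raw counts, whole numbers for 46078 Ensembl identifiers in 16 libraries, used as deposited. Per the submitters' processing notes, reads went through Trim Galore and TopHat. How reads were counted (program, strand, annotation) and on which build is not given in the sources used here. Symbols (45143 identifiers) and exon lengths came from GENCODE M21 by identifier, and the 935 unnamed identifiers stayed in the tests. The strand setting being unknown, reads of overlapping antisense genes cannot be told apart.

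Scaling was by TMM, and filterByExpr kept genes by a minimum count of 10 and a minimum total of 15. Groups were compared by the quasi-likelihood F-test of edgeR 4.0.16 (limma 3.58.1, R 4.3.3), with Benjamini-Hochberg adjustment over all genes tested and a threshold of 0.05. Cold effects were fitted within a tissue, and the difference between tissues and both tissue comparisons in 1 model of 16 libraries. SE was taken as the size of the log2 fold change divided by the root of F. DESeq2 1.42.0 and limma-voom with quality weights were alternatives. The pipeline was tested on simulated data. In a chi-square test of counts, each of the 24 within-group pairs of libraries differed beyond sampling noise (at least 21.4 per degree of freedom).

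The members and lists were chosen with earlier results of these data known. The naming rule gives values per library for Nfe2l1, the 6 catalytic subunits, Psme1, Psme2 and the highest and lowest member of each class in cold BAT, and up to 4 other members of a list. 1 listed partner, Paaf1, was not matched. Alternatives were RLE size factors, library totals, a threshold of 0.01, no filter, leaving out each library, all libraries in 1 model, a replicate block, and only BAT libraries with matching source label.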

Additional observations from a re-analysis of the deposited data

Results flagged for a closer look

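For 5 members the cold effect differed between the tissues by the test of the difference itself (WAT minus BAT log2 fold change, edgeR quasi-likelihood test with Benjamini-Hochberg adjustment over 19481 genes). By the same test 12.5% of all genes were above 0 and 8.34% below. Of the 5 members, 3 were positive. The difference was 0.95 for Psmb8, whose log2 fold change was -1.39 in BAT and -0.47 in WAT. It was 0.70 for Psmb10 (-1.02 in BAT and -0.35 in WAT) and 0.58 for Psme1 (-0.83 and -0.28). The other 2 were negative: the difference was -0.79 for Psmc4, with 1.23 in BAT and 0.41 in WAT, and -0.76 for Psmd10, with 0.87 and 0.08. Without WAT_5C replicate 1 the 5 differences were 1.077, 0.73, 0.61, -0.94 and -0.82 in that order, each past the threshold. With only the BAT libraries whose source label matches, Psmb8 was at 0.94 (adjusted p = 0.108) and Psme1 at 0.57 (adjusted p = 0.0646), past it no longer.

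Dixon's 95% criterion marked no library in any of the 84 groups of 4 libraries tested, of which chance would mark about 1 in 20. With 4 libraries it marks only a gap that spans most of the group's range. The result therefore does not show that no library was aberrant. WAT_5C replicate 1 stood apart by other measures, with 3 counts of Xist and 17183 Y-linked counts. Its chi-square per degree of freedom was 503 to 851 against the other WAT_5C libraries, and 34 to 117 among those.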

How the results depend on the processing

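The count of members past the threshold depended on scaling and on WAT_5C replicate 1. With library totals the count in cold BAT was 19 higher and 14 lower, against 14.3% and 54.5% of genes. Between tissues it was 3 higher and 37 lower at 30 °C (12.9% and 66.1%) and 6 and 33 at 5 °C (10.9% and 71.3%). DESeq2 gave 1 higher and 1 lower in cold WAT (4.46% and 1.45% of genes), and 4 and 4 without WAT_5C replicate 1 (7.35% and 4.96%). For WAT minus BAT it gave 6 members below 0, against 13.1% of genes. Limma-voom gave 9 higher and 3 lower in cold WAT (7.34% and 4.62% of genes), and 5 and 4 without that library (6.47% and 3.73%). For WAT minus BAT it gave 5 above and 14 below 0, against 20.1% and 14.8% of genes. One model of all libraries gave 16 higher in cold WAT (7.39% of genes) and 7 without that library (5.71%). With matching source labels only, 1 member was above 0 for WAT minus BAT, against 4.31% of genes. The cause of these differences was not tested.

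With each library of the groups compared left out in turn, 36 to 37 members rose and 6 fell in cold BAT. Of all genes, 26.3 to 29.3% rose and 25.7 to 28.1% fell. In cold WAT 0 to 1 rose with all libraries, 1 without WAT_5C replicate 2, and 0 to 3 with replicate 1 also left out. For WAT minus BAT 3 to 4 were above 0 and 2 to 17 below, 17 without WAT_5C replicate 1. Of all genes, 9.75 to 15.6% were above and 6.45 to 15.7% below. Between tissues 29 to 33 were higher and 6 to 7 lower at 30 °C, and 35 to 40 and 5 to 6 at 5 °C. At 30 °C 32.1 to 33.3% of all genes were higher and 33.3 to 34.4% lower. At 5 °C it was 30.3% and 39.1% without BAT_5C replicate 3, with 35 members higher. Without WAT_5C replicate 1, with 40 members higher, it was 34% and 42.2%. Psmb4 passed without BAT_30C replicate 2 (0.16, adjusted p = 0.0427), Psmb6 without BAT_5C replicate 2 (0.15, adjusted p = 0.0468), and Psmd5 in cold WAT without WAT_5C replicate 2 (0.49, adjusted p = 0.0396). Ubb lost its call in cold BAT when any of 5 libraries was left out (BAT_30C replicates 2, 3 and 4, BAT_5C replicates 3 and 4), with values from -0.26 to -0.18.

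Signs turned almost only with library totals: in cold BAT Psma5 was then at -0.15, Psmb4 at -0.27, Psmb6 at -0.28, Psmc6 at -0.12, Psmd8 at -0.085, Psme2 at -0.30, Psme3 at -0.061, Psmf1 at -0.32, Psmg1 at -0.0026, Psmg3 at -0.27 and Uba1 at -0.043. In cold WAT Psmb6 was at -0.034 with and -0.026 without WAT_5C replicate 1, and Psme3 was at -0.19 between tissues at 30 °C. Psmg3 also turned, to -0.0051, without BAT_5C replicate 1, and ranged up to 0.21 with another library left out (BAT_5C replicate 2).

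Replicate numbers were not shown to pair libraries: residuals of equal numbers correlated from -0.303 to 0.275 within a temperature and from -0.531 to 0.199 across. With a replicate block 36 members rose and 6 fell in cold BAT (27.9% and 28.2% of genes), and 0 and 0 in cold WAT. For WAT minus BAT it gave 3 and 2 (10.2% and 7.16%). Between tissues it gave 32 and 6 at 30 °C (33.4% and 34.6%) and 37 and 5 at 5 °C (31.6% and 39.2%). Psma8, Psmb11 and Psme2b lay near the limit of depth, and arms of 4 libraries limit small differences in WAT.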
